A study of Mus musculus with 2 samples.

Results

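The microRNA genes of the Mir466, Mir467, Mir669 and Mir297 families were described in small RNA libraries of the newborn mouse heart. Members were all gene rows of the count tables whose GENCODE symbol names 1 of these 4 families, with any letter or copy number after it. The rule found 69 of 1973 gene rows: 25 of Mir466, 17 of Mir467, 21 of Mir669 and 6 of Mir297. Of these, 59 lay inside the gene Sfmbt2 on chromosome 2 and 10 lay elsewhere. A further 12 genes of these families in the annotation used here have no row in the tables. There was 1 group of 2 libraries, each from the whole heart of a single B6NCrl pup at postnatal day 0. Replicate 1 came from pup 1 and replicate 2 from pup 3. Total RNA was the starting material and inserts were under 30 nt. No treatment, genotype or second tissue was given, so the data hold no contrast between conditions, and whole heart mixes muscle, vessel, blood and connective tissue cells.

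MicroRNAs are short RNAs cut from a hairpin precursor, and bases 2 to 8 of the mature strand, the seed, do most of the pairing with target transcripts. Sfmbt2 encodes a Polycomb group protein, and in mice the gene is imprinted and expressed from the paternal copy in placental tissue. In rodents a large intron of Sfmbt2 carries a long row of microRNA hairpins that arose by repeated duplication. Those microRNAs are known mainly from placenta and early embryonic cells. Their precursors are rich in alternating U and G or C and A, so many copies look alike and short reads from them can match several places.

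Sequences of the loci outside Sfmbt2 are shown first, because they let the repeat character of the families be read directly. RefSeq entries on build GRCm38.p6 matched 9 of the 69 members, and 8 of these have a mature sequence. Each is written 5′ to 3′ with the seed in capitals.
miR-466q, chr3:28419988-28420007, plus strand: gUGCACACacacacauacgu
miR-466k, chr3:85467396-85467418, plus strand: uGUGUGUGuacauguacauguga
miR-466j, chr10:60960802-60960824, plus strand: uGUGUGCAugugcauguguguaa
miR-466i-3p, chr13:17747552-17747573, plus strand: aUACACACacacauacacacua
miR-467f, chr11:69635419-69635439, minus strand: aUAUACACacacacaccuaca
miR-467g, chr5:34732872-34732892, minus strand: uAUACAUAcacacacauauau
miR-467h, chr9:115381898-115381919, plus strand: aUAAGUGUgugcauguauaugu
miR-669n, chr3:115979905-115979924, plus strand: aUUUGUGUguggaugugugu

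The 8 mature sequences had 8 different seeds, so the family number in the name did not mark a shared seed among them. Some seeds recurred in the precursors of other members all the same. The counts given here include each seed's own precursor, and the 2202 precursors include the members. The seed of miR-467g, AUACAUA, occurred on the transcribed strand of 51 of the 69 member precursors (73.9%), against 6.49% of the 2202 microRNA precursors in the annotation. The seeds of miR-466k (GUGUGUG) and miR-466i-3p (UACACAC) each occurred in 40 of 69 (58.0%), against 9.54% and 8.17% of all precursors. The seed of miR-467h occurred in 2 of 69 (2.90%), against 0.636% of all precursors. A seed in a precursor is a description of its letters and does not show that it lies in a mature strand.

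Whole hairpins show the same character. In the Mir466k precursor below the capitals mark its longest alternating run of U and G, 23 bases, and in the Mir297-1 precursor they mark repeats of AUGU.
Mir466k hairpin, chr3:85467377-85467498, plus strand: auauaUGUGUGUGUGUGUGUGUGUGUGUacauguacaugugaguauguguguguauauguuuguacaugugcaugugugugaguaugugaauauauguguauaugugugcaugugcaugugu
Mir297-1 hairpin, chr7:10958437-10958512, minus strand: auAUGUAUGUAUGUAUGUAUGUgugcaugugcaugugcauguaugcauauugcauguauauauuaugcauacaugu

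The motif TGTGTGTG, searched on both strands of the annotated precursors, was found in 54 of 69 members (78.3%) and in 9.04% of the 1825 other gene rows with a precursor sequence. The motif ATGTATGT was found in 19 members (27.5%) and in 4.05% of the others. It was in 12 of 59 loci inside Sfmbt2 (20.3%) and in 7 of 10 outside (70.0%), and the longest alternating run had a median of 9 bases inside and 13 outside. The printed sequences thus come from the loci richer in these motifs and runs, which had almost no counts. Those loci shared less sequence with other precursors, however. A median of 70.0% of their 20-nt windows occurred in no other precursor, against 29.9% inside. Their precursors were also longer, with a median of 120.5 nt against 90 nt inside. Precursor lengths were alike, with a median of 94 nt for the members and 90 nt for the others. GC content was lower in the members, with a median of 37.2% against 51.7%.

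Replicate 1 held 6373797 and replicate 2 held 7630427 sense-strand counts over all gene rows. At this depth 3 counts, the upper limit that a count of 0 allows, are 0.471 and 0.393 CPM (counts scaled to a total of 1000000). Each read is a whole short RNA, so CPM was not divided by gene length. Reads that matched several places were kept apart from the gene rows, and made up 35.9% and 34.6% of all reads. Intervals and limits given here cover counting error only. The tissue label was checked on microRNAs of heart cells. The myosin intron microRNA Mir208b stood at 104936 ± 4545 CPM (SD, n = 2), while the hepatocyte microRNA Mir122 stood at 40.2 ± 6.21.

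Members together took 8926 of the sense counts in replicate 1 and 9525 in replicate 2. As a share this was 0.140% of replicate 1 and 0.125% of replicate 2, with exact Clopper-Pearson 95% intervals of 0.137 to 0.143 and 0.122 to 0.127, a mean of 0.132% ± 0.0108 (SD, n = 2). With the reads that matched several places added to the total, and none of them to the members, the mean share was 0.0743%. Mir467 genes made up most of it, 81.9% of members' counts in replicate 1 and 79.8% in replicate 2. Mir669 genes gave 17.7% and 19.8%. Mir466, the family with the most rows, gave 0.291% and 0.262%, which was 26 and 25 counts. Mir297 genes gave 11 counts in each library. These family shares leave out reads that matched several places, so they are not shares of all reads of a family. Rows with no 20-nt window of their own were 10 of Mir467, 6 of Mir466, 4 of Mir669 and 0 of Mir297.

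The share of members with enough counts was near that of all rows. Of the 69 members, 10 had 10 or more sense counts in both libraries, 14.5%, where 18.1% of all 1973 rows did. These 10 held 99.9% and 99.8% of the members' counts. Rows below the minimum can hold few counts, so that share is not a result about the members. The 10 were 3 Mir467, 5 Mir669, 1 Mir466 and 1 Mir297 gene, and all lay inside Sfmbt2. Another 13 members had 1 to 4 counts in a library, and 46 (66.7%) had 0 in both, close to the 63.7% of all rows.

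Among these counts, which leave out reads that matched several places, Mir467d (ENSMUSG00000077021.2, chr2:10507630-10507714, plus strand) led with 3419 counts in replicate 1 and 3402 in replicate 2, or 536 and 446 CPM. Its mean of 491 ± 64.0 CPM (SD, n = 2) was rank 95 of all gene rows. Mir467e (ENSMUSG00000076948.2, chr2:10505721-10505807) had 2357 and 2672 counts, or 370 and 350 CPM, rank 108. Mir467c (ENSMUSG00000077049.2, chr2:10473931-10474027) had 1531 counts in each library, which is 240 and 201 CPM, rank 124. The CPM of these 3 genes did not overlap between genes, and their order was the same in both hearts. Together they held 81.9% and 79.8% of the members' counts.

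Within a heart, counts of Mir467d exceeded those of Mir467c by 2.23-fold in replicate 1 (exact 95% interval 2.10 to 2.37) and 2.22-fold in replicate 2 (2.09 to 2.36). Its excess over Mir467e was 1.45-fold (1.38 to 1.53) and 1.27-fold (1.21 to 1.34). The first ratio was thus alike in both hearts within counting error, and the intervals of the second did not overlap. In counted level, the gene rows nearest to Mir467d over the 2 hearts were Mir500 at 481 ± 18.1 CPM, Mir674 at 508 ± 10.2 and Mir181b-2 at 523 ± 233. Those nearest to Mir467e were Mir29a at 369 ± 82.4 CPM, Mir186 at 368 ± 13.8 and Mir337 at 350 ± 5.79. These names mark similar mean CPM only, in counts that leave out reads matching several places. Windows found in no other precursor were 100% in Mir674, Mir29a and Mir186 and 90% in Mir181b-2. The counts thus do not compare levels with Mir467d and Mir467e. Mir181b-2 also differed between the hearts, with 2283 counts in replicate 1 and 5243 in replicate 2.

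Mir669 genes formed the middle of the range. Mir669o (chr2:10514300-10514395) had 670 and 794 counts, or 105 and 104 CPM. Mir669l (chr2:10468971-10469068) had 531 and 570 counts, or 83.3 and 74.7 CPM. Mir669c (chr2:10509296-10509404) had 307 and 422 counts, or 48.2 and 55.3 CPM. These 3 genes also kept 1 order in both hearts and did not overlap in CPM.

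The remaining genes above the minimum were far lower. Mir669e had 53 and 66 counts (8.48 ± 0.236 CPM, SD, n = 2) and Mir669h 20 and 28 (3.40 ± 0.376). Mir466n, the highest Mir466 gene, had 19 and 13 counts (2.34 ± 0.903). Mir297a-2, the highest Mir297 gene, had 10 and 11 (1.51 ± 0.0900). In replicate 1 Mir669h and Mir466n differed by 1 count, so their order there was not resolved. Below the minimum, Mir466h had 0 and 4 counts, Mir466b-3 had 1 and 3, and Mir669f had 0 and 3. The other 10 members with any count had at most 2 in a library: Mir466, Mir466d, Mir466g, Mir466l, Mir466o, Mir466p, Mir466q, Mir467b, Mir669a-3 and Mir297c.

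**Figure D1:**
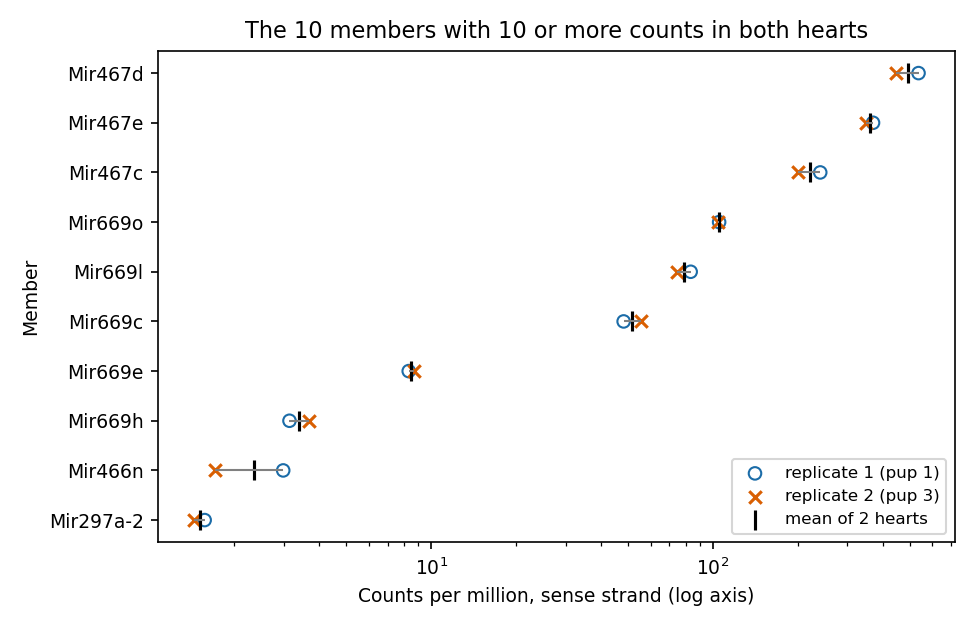
Level of the 10 members with 10 or more sense counts in both hearts, in CPM on a log axis, with a circle for replicate 1, a cross for replicate 2 and a bar for their mean. Mir467d, Mir467e and Mir467c stand between 201 and 536 CPM, and Mir466n and Mir297a-2 lie at the low end.

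Loci inside and outside Sfmbt2 were then compared. All 59 inside lay on the strand of Sfmbt2 and in its intron of 62472 bases (chr2:10461473-10523944, mm10), which follows exon 10 or exon 11 depending on the transcript. From the first to the last they spanned 51617 bases. The 10 loci outside were on chromosomes 3, 5, 7, 9, 10, 11 and 13. Mir466q lay in an intron of Tnik on the same strand. Mir467f in Fxr2, Mir466i in Cdk13, Mir669n in Slc30a7, Mir467g in Grk4 and Mir466k in Gm37240 lay in introns on the opposite strand, and the other 4 were intergenic.

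Nearly all counts came from inside. Loci inside Sfmbt2 held 8924 of 8926 counts in replicate 1, which is 99.98% with an exact 95% interval of 99.92 to 99.997, and all 9525 in replicate 2. Outside, Mir466q had 2 counts in replicate 1 and 0 in replicate 2, and the other 9 loci had 0 in both. Taken as 3 counts, the limit for 0 of 9525 is a share of 0.0315%. Of the loci inside, 10 of 59 (16.9%) reached 10 counts in both libraries, and 0 of 10 did outside. With only 10 loci outside, and loci that share sequence and host, no test was made of that difference.

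The counted loci lay toward both ends of the row. Mir467c and Mir467e lay 31.7 kb from each other, and the 26 members between them had 2 counts in replicate 1 and 4 in replicate 2 in all. Before Mir467c, 3 of 12 members reached the minimum (Mir669e, Mir669l and Mir297a-2). After Mir467e, 5 of 19 did (Mir467d, Mir669c, Mir466n, Mir669o and Mir669h). The 14 Mir467 loci inside Sfmbt2 recurred at a median start-to-start distance of 2.45 kb (range 1.91 to 4.88). Between Mir467c and Mir467e, copies of Mir467a and Mir467b lay among Mir466 and Mir669 copies.

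**Figure D2:**
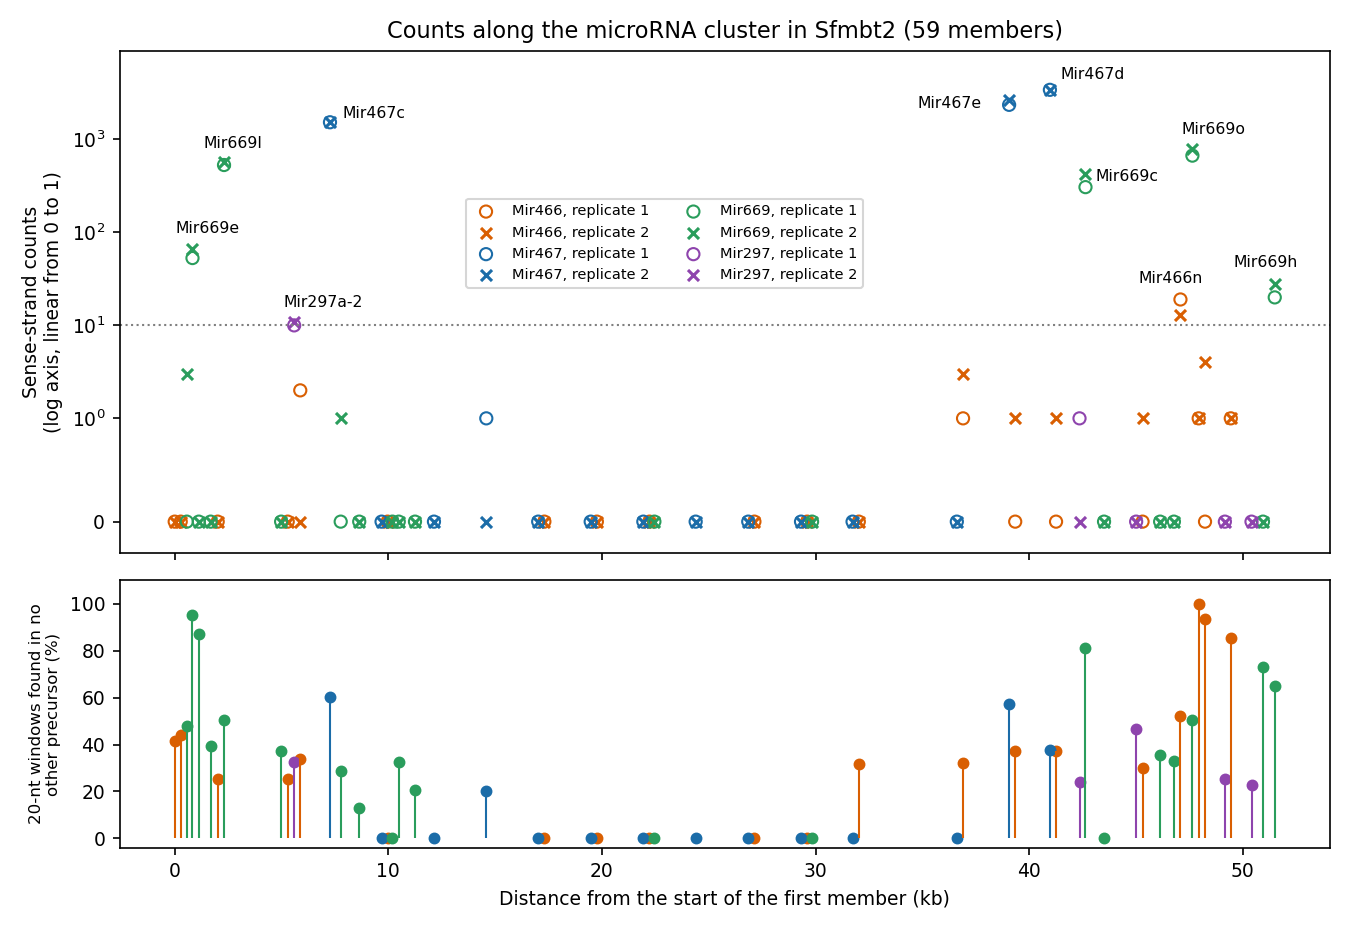
Upper panel, sense-strand counts of the 59 members inside Sfmbt2 (log axis above 1, circles for replicate 1, crosses for replicate 2, dotted line at 10 counts) against distance in kb from the first member. Lower panel, the share of 20-nt windows of each precursor that occur in no other annotated microRNA precursor. The 26 members between Mir467c and Mir467e have at most 3 counts each, and 19 of them have no window of their own.

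Sequence sharing was measured on the annotated precursors to place these zeros beside what the counting could see. A 20-nt window of a precursor was called unique when it occurred on neither strand of any other annotated microRNA precursor that does not overlap it. In 67 of 69 members (97.1%) some window was shared, against 47.2% of the other 1825 rows. The exceptions were Mir466g and Mir669n. In 20 members no window was unique. That was 29.0% of members, against 13.0% of the other 1825 rows. All 20 lay inside Sfmbt2 and had 0 counts in both libraries, and so did 235 of the 238 other rows without a unique window (98.7%), so the zeros are not a result about the members. They were all 10 Mir467a rows, 6 Mir466 rows and 4 Mir669 rows. Of the Mir467a precursors, 6 were identical to each other and 3 more formed a second identical group.

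A high share of unique windows did not go with counts in every member. Mir467d, which had the most counts of reads that matched 1 place, had unique windows for only 37.9% of its precursor and shared 60 bases in a row with Mir467a copies. Reads that match several copies are in no gene row, so levels of Mir467a and Mir467d cannot be ranked against each other. Mir467e had 57.4% and Mir467c 60.3%, and these 2 shared a run of 48 bases with each other. By contrast Mir466g, with 100% unique windows, had 1 count in each library, and Mir466l, with 85.3%, also had 1 in each. Outside Sfmbt2, Mir669n with 100% had 0 counts. Mir466f-4 with 90.2%, Mir466j with 86.4% and Mir467f with 82.2% had 0 as well.

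Members with partly unique precursors stood beside other gene rows in the same range as follows. Of members with some but under 75% unique windows, 8 of 38 (21.1%) reached 10 counts in both libraries. Of other gene rows in that range 2 of 403 (0.496%) did, Mir199a-1 at 2.44 ± 1.00 CPM and Mir133a-1 at 8.24 ± 1.88. Of those 403 rows 388 (96.3%) had 0 counts in both libraries, and many carry provisional Gm symbols. Among the 38 members 20 (52.6%) had 0 in both. Reads that matched several places are left out of all these rows, so the shares do not compare levels. At 75% or more unique windows the order was the other way, with 2 of 11 members (18.2%, Mir669c and Mir669e) and 345 of 1184 other rows (29.1%). The bound of 75% was chosen after the values were seen, and these shares are descriptions with no test. Uniqueness here was judged against microRNA precursors, not the whole genome, so a window called unique may still recur elsewhere.

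**Figure D3:**
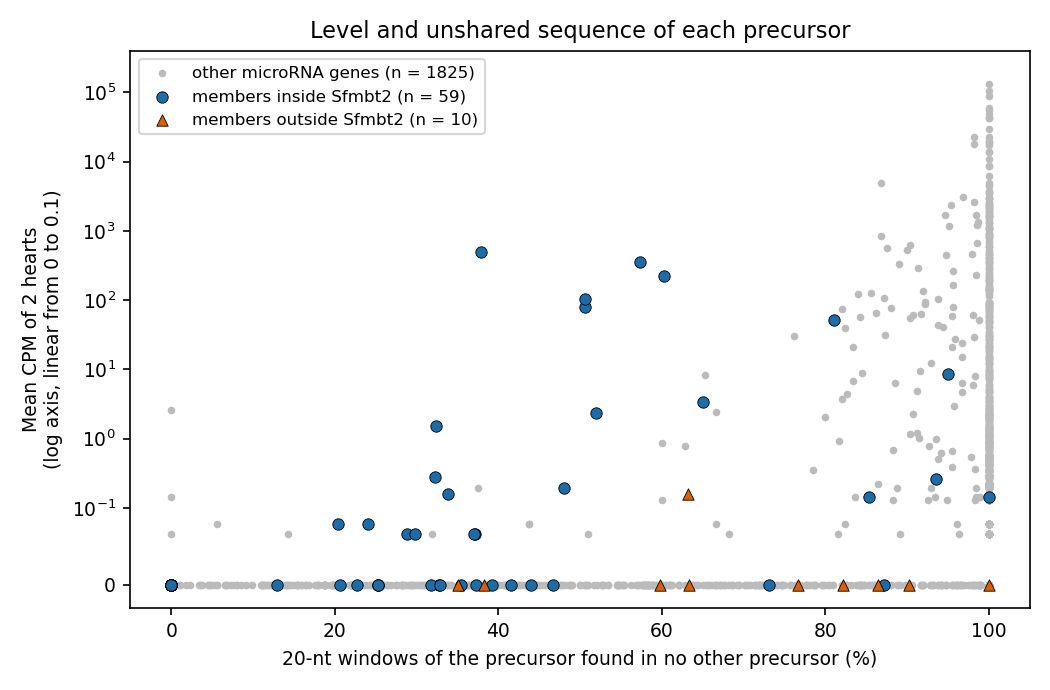
Mean CPM of the 2 hearts (log axis above 0.1) against the percentage of 20-nt windows that occur in no other precursor, for 59 members inside Sfmbt2 (circles), 10 outside (triangles) and 1825 other microRNA genes (grey). Mir467d, Mir467e and Mir467c lie at 37.9 to 60.3% unique windows and above 200 CPM, while no grey point from 0 to under 75% exceeds the 8.24 CPM of Mir133a-1. Most grey points in that range stand at 0 CPM.

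The unique windows were unevenly spread along the precursor in some of the counted genes. In others, such as Mir467e and Mir669l (48.7% on the 5′ side and 52.5% on the 3′ side), they were nearly even. Split at the middle, Mir467d had 57.6% unique windows on the 5′ side and 18.2% on the 3′ side. In Mir467c they were 43.6% and 76.9%, and in Mir467e 58.8% and 55.9%. Mir466n had 10.8% on the 5′ side and 92.1% on the 3′ side, and Mir297a-2 0% and 63.9%. The tables give 1 count per gene and not per arm, so which mature strand the counts came from was not measured.

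No member had a count on the opposite strand in either library. By the same limit of 3 counts, 0 of 8926 in replicate 1 allows a share of up to 0.0336%, and 0 of 9525 in replicate 2 up to 0.0315%. Most rows were alike in this: of 359 other rows with 10 or more counts, summed over strands, in both libraries, 313 (87.2%) had 0 on the opposite strand. Over all gene rows the opposite strand held 7.15% and 7.22% of counts, of which 10 rows carried 99.9% and 99.8%.

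Differences between the hearts were tested gene by gene with a 2-sided exact binomial test given the library totals, with Benjamini-Hochberg adjustment over the 435 gene rows whose summed sense count was at least 10. With 1 library per heart, the test compares these 2 libraries and covers sampling noise only. Among all rows tested, 31.0% passed an adjusted p of 0.05, 12.0% higher in replicate 1 and 19.1% higher in replicate 2. Of the members 10 could be tested. Mir467d was 1.20-fold higher in replicate 1 (95% interval 1.15 to 1.26, exact binomial adjusted p = 2.00e-13), and Mir467c was 1.20-fold higher there as well (1.11 to 1.29, adjusted p = 3.52e-06). No member passed in the direction of replicate 2. A share of 2 in 10 is not above the 31.0% of all rows.

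The other 8 did not pass. Mir467e, with a log2 ratio of replicate 2 over replicate 1 of -0.08, had an adjusted p of 0.150 in the exact binomial test, and Mir669c, at 0.20, had 0.181. With the total counted without Mir126a, the most abundant gene, Mir467e passed too (log2 ratio -0.12, exact binomial adjusted p = 0.0169). Mir669o had nearly the same CPM in both hearts, with a ratio of 0.990 (95% interval 0.892 to 1.10). Intervals were wide for the low genes, from 0.259 to 1.22 for Mir466n and from 0.354 to 2.41 for Mir297a-2, so these cannot be called alike. The median log2 ratio of the 10 members was -0.10, and of all 435 rows 0.02. When edgeR's exact test allowed for a preset biological coefficient of variation of 0.1, 0 members passed (0 at an unadjusted p under 0.05), and 0.230% of all rows did.

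**Figure D4:**
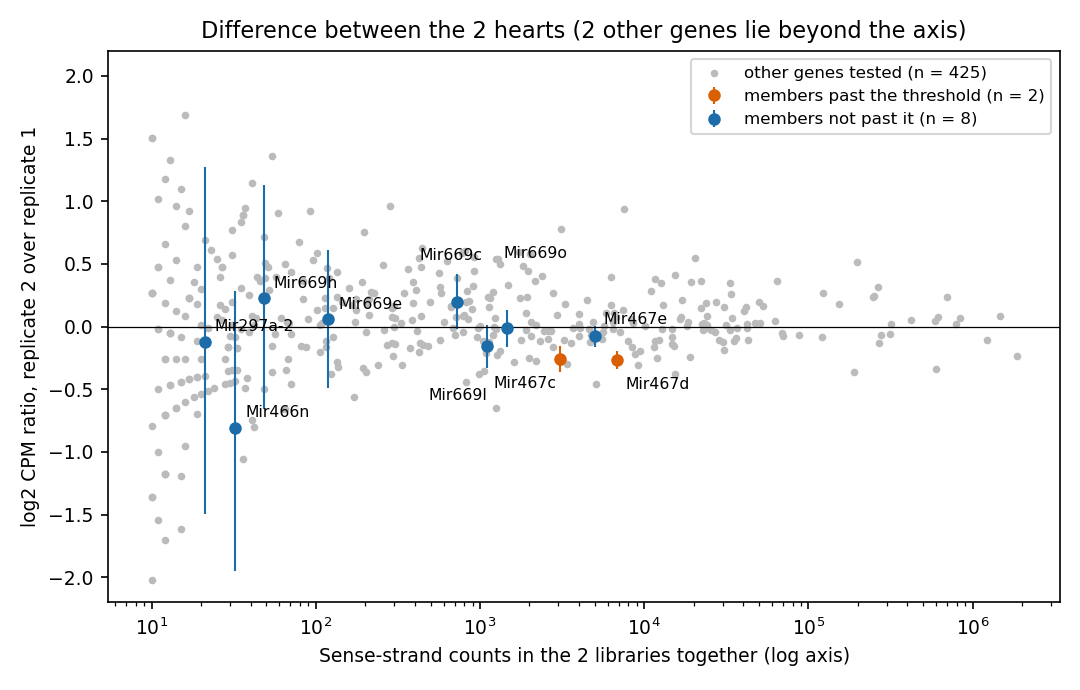
Log2 ratio of CPM, replicate 2 over replicate 1, against the counts of both libraries together (log axis), for the 10 members with exact 95% intervals and for 425 other genes tested (grey, drawn with 0.5 added to each count). Mir467d and Mir467c lie below 0 with intervals that leave out 0, while the intervals of the other 8 members cross it.

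The microRNAs Mir574, Mir3082 and Mir1187, which have similar repeats and belong to none of the 4 families, were set beside the members. Mir574 had 1713 and 1665 counts, or 269 and 218 CPM, with a mean CPM between those of Mir467e and Mir467c. Mir3082 had 3 and 5 counts, and Mir1187 had 0 in both. The precursors of Mir574 and Mir3082 had 100% unique windows and that of Mir1187 had 67.0%. Those of Mir467e and Mir467c had 57.4% and 60.3%. Reads that matched several places are left out, so these counts do not rank levels. The mature miR-574-5p (chr5:64970328-64970350, plus strand) is shown with its seed in capitals, because it too alternates U and G and had no exact copy in a member precursor.
miR-574-5p: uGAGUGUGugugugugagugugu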

How the data were processed

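Small RNA of 2 newborn mouse hearts was measured, 1 library each. The deposited tables hold raw read counts per microRNA gene with no normalization; per the file headers of the accompanying text files, the authors worked on build mm10 with GENCODE M4, and each table derives from 1 alignment. The aligner and counter were not given in the sources used here. From the values, column 2 holds both strands, column 3 the strand of the gene and column 4 the opposite strand. Totals exclude 4 rows without a gene: unmapped reads (12.6% and 15.5%), reads matching several places (35.9% and 34.6%), reads in no gene (1.93% and 2.28%) and ambiguous reads (0).

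Symbols, positions and precursor sequences came from GENCODE M21 on the same build, which matched 1894 of 1973 rows. CPM was scaled to the sense total of 1000000. Values are mean ± SD of 2 hearts. Intervals given with shares are exact Clopper-Pearson 95% intervals. Limits for counts of 0 were taken as 3 counts instead, and are narrower. For the opposite strand of members the Clopper-Pearson upper bounds were 0.0413% in replicate 1 and 0.0387% in replicate 2. Alternatives changed strand, scaling, count minimum, assumed spread, locus definition and window length. Named genes were members with any count, up to 25 by mean CPM, members past the threshold, the 3 rows nearest in level to each of the 2 leading members, and the relatives Mir574, Mir1187 and Mir3082. The members and lists were chosen with earlier results of these data known. Software was pandas 2.3.3, SciPy 1.17.1, NumPy 2.4.6 and matplotlib 3.10.9 in Python 3.11.15, with edgeR 4.0.16 and, for size factors, DESeq2 1.42.0 in R 4.3.3.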

Additional observations from a re-analysis of the deposited data

How the results depend on the processing

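The number of members with enough counts stayed at 10 with either library alone and with both strands, and was 6, all inside Sfmbt2, with a minimum of 100 counts in each library. With 1 count in each library it was 13. Only 2 members, 1 inside and 1 outside, share no 20 nt with another precursor, and 0 of these reached the minimum. The members' share of counts, 0.132%, was 0.153% of a total without the most abundant gene, and 0.125 to 0.140% in single libraries. It was 0.0743% when reads matching several places were added to the total and none of them to the members. The share inside Sfmbt2 lay between 99.98 and 100% in single libraries, and the share on the opposite strand was 0% in both. Members differing between the hearts were 2, and 0 with edgeR's exact test at the preset spread, where Mir467d had an adjusted p of 0.995 and Mir467c of 1. With TMM factors, DESeq2 size factors, both strands and the other count minimums the number stayed at 2, and it was 3 without the most abundant gene. Windows of 18 or 22 nt, added after the data were seen, also gave 20 members with no unique window. A test between hearts cannot be made with a library left out. No paired analysis was possible because there is only 1 group. Depth limits the 46 members at 0 counts to 0.471 and 0.393 CPM, and this does not cover reads that matched several places.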

Other observations

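Besides the members, 48 other microRNA rows of the tables lie inside Sfmbt2, under provisional Gm symbols. They had 5 counts in replicate 1 and 3 in replicate 2 in all, with at most 2 for any row in a library. Only Gm22072, Gm26398, Gm25263 and Gm22239 had any. Counting them, 60 rows lay between Mir467c and Mir467e and held 3 and 4 counts.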
